A study of Saccharomyces cerevisiae with 6 samples.

Results

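The general stress genes of budding yeast (Saccharomyces cerevisiae) controlled in the manner of the activators Msn2 and Msn4 were examined in a histone H4 mutant. A list of 39 genes was taken by gene symbol or synonym, and each was read from the probe set whose log2 signal had the highest mean. All 39 were measured, of 5449 genes in all, each by a single probe set of the type made for 1 transcript. The arrays held 3 samples of the wild-type strain WY139, whose histone H4 is intact, and 3 samples of a strain in which arginine 45 of H4 is replaced by histidine (H4R45H). No other allele or agent is named for either strain in the labels, and both were grown in YPD, a rich glucose medium, and collected in mid-log phase at an optical density (OD600) of 0.5 to 0.7. The labels do not say whether the 3 samples of a strain are separate cultures, and the p-values cover only the array-to-array spread, possibly a technical one. In RNA of whole cultures, more RNA in every cell and more cells that express a gene cannot be told apart. The study asked how a small change in the core of H4 alters transcript levels. Signals are linear array units made by the authors with MAS5, which gives 1 value per probe set.

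Msn2 and Msn4 are zinc finger activators that bind the stress response element in many promoters. While glucose is plentiful, protein kinase A, driven by Ras and cyclic AMP, keeps them out of the nucleus, and on heat, salt, oxidants or nutrient shortage they enter it. Their targets include chaperones, antioxidant enzymes, storage carbohydrate enzymes, proteases and many small proteins that shield membranes and proteins from drying or heat.

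The general stress genes were higher in H4R45H almost throughout. Of the 39 genes 38 rose, 0 fell and 1, HOR7, did not pass the test (limma, Benjamini-Hochberg adjusted p under 0.05 over all probe sets). Across all 5449 genes 37.1% were called higher and 29.1% lower. The median log2 difference of the 39 genes was 1.70, a fold of 3.24, beside 0.05 for all genes. Of the 39 genes 30 rose at least 2-fold, against 8.88% of all genes, and 11 rose at least 4-fold, against 1.43%. The 3 H4R45H values lay above all 3 wild-type values in 38 of 39 genes, against 39.8% of all genes. Ranked by size of rise among the 5449 genes, 8 of the 39 were in the top 50, 15 in the top 100 and 26 in the top 250. The direction held with the scaling: 36 of 39 genes were called higher on the deposited scale, after quantile normalization, after median centring and after cyclic loess normalization alike, and HOR7, YNL194C and RGI2 were the exceptions. Quantile normalization moved the median of all genes from 0.05 to -0.07 and that of the 39 genes to 1.34.

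**Figure D1:**
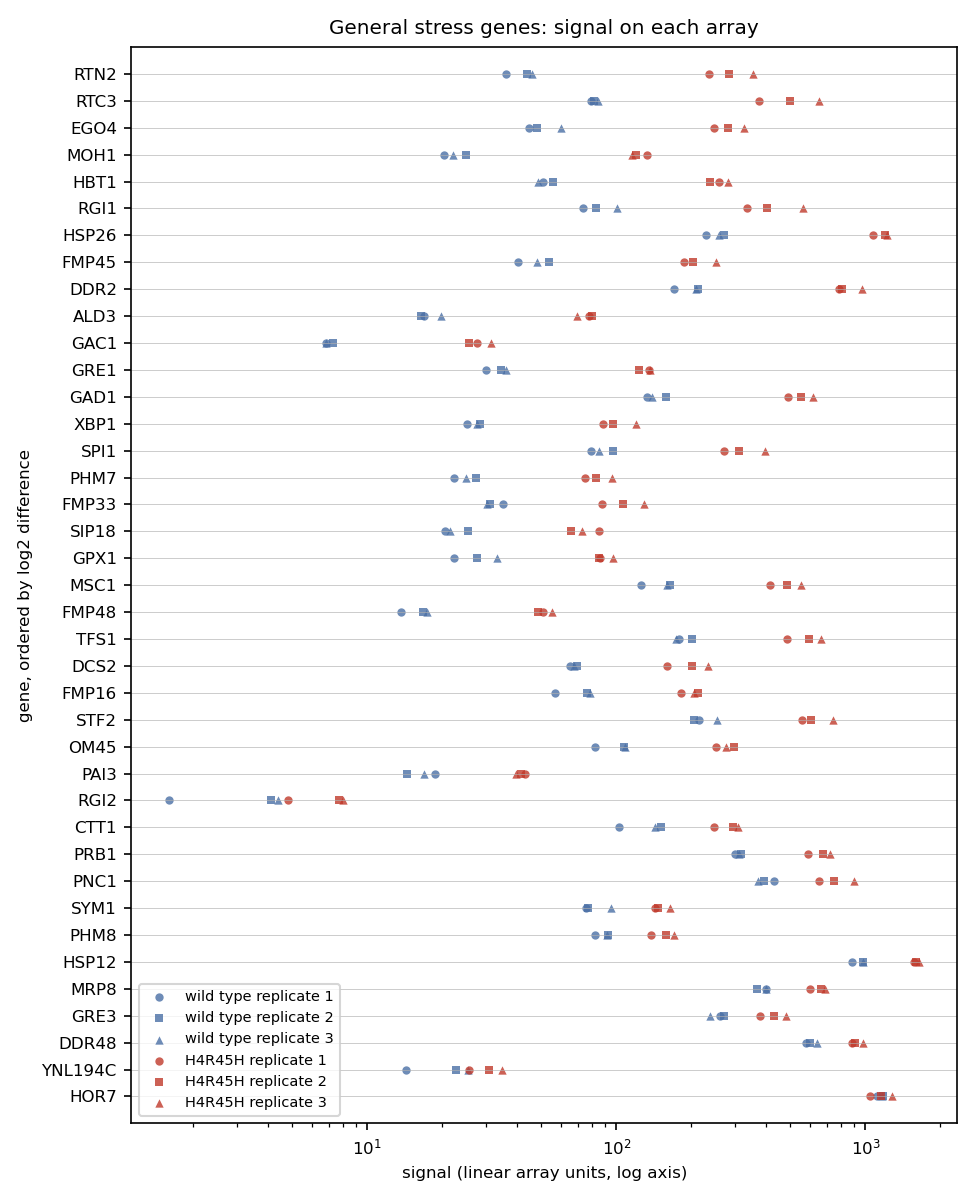
Signal of each general stress gene (rows, ordered by log2 difference) on each array, on a log axis in linear array units; blue points are the 3 wild-type arrays and red points the 3 H4R45H arrays, with a marker shape for each replicate. Red points lie to the right of blue points in 38 of 39 genes, and they overlap for HOR7 at the bottom.

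Genes grouped under membranes and cell shape rose in 6 of 6 cases, beside 37.1% of all genes. They held both the largest and the smallest of the 38 rises. RTN2, a reticulon that shapes tubules of the endoplasmic reticulum, read 35.9, 43.6 and 45.9 on the wild-type arrays and 236.4, 283.4 and 352.4 on the H4R45H arrays. The strains were far apart, and RTN2 rose 6.90-fold (log2 difference 2.79, SE 0.14, adjusted p = 1.0e-07). EGO4 read 44.5, 47.9 and 59.9 in wild type and 246.4, 280.6 and 326.8 in H4R45H, a rise of 5.61-fold. HBT1, whose product is linked to polarised cell shape, read 50.7, 55.5 and 48.3 in wild type and 258.2, 237.7 and 280.4 in H4R45H, a rise of 5.02-fold. The H4R45H values of these 2 genes also lay above all wild-type values, as did those of 39.8% of all genes. FMP45, a membrane protein of the Sur7 family that sits in plasma membrane furrows, read 40.2, 53.6 and 48.1 in wild type and 187.3, 202.3 and 252.2 in H4R45H, a rise of 4.52-fold. PHM7 rose 3.41-fold, from 24.8 ± 2.4 to 84.7 ± 10.7 (SD, n = 3). YNL194C, a relative of FMP45, was chosen for its per-array values after they were seen. It read 14.3, 22.8 and 25.3 in wild type and 25.7, 30.7 and 34.6 in H4R45H, so that the highest wild-type value nearly touched the lowest H4R45H value. Its log2 difference of 0.58 passed the test (SE 0.20, adjusted p = 0.027), but with median centring it missed the threshold (0.47, adjusted p = 0.053), and the sign was negative with quantile normalization (-0.22, adjusted p = 0.29) and cyclic loess (-0.06, adjusted p = 0.80). Leaving out wild type replicate 1 (0.33, adjusted p = 0.073), H4R45H replicate 2 (0.56, adjusted p = 0.072) or H4R45H replicate 3 (0.48, adjusted p = 0.086) lost it too.

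Chaperone and protectant genes all rose, and the already bright HSP12 rose less than HSP26. HSP26 encodes a small heat shock protein that holds unfolding proteins. It read 229.7, 271.2 and 257.9 in wild type and 1074, 1195.5 and 1218.8 in H4R45H, a rise of 4.6-fold (log2 difference 2.20, SE 0.073, adjusted p = 2.2e-08). HSP12, a small protein that stabilises membranes, went from 948.7 ± 55.5 to 1602 ± 44.1 (SD, n = 3), a rise of 1.69-fold. GRE1 and SIP18 encode hydrophilins, small hydrophilic proteins made on water loss. GRE1 read 30.1, 34.3 and 36 in wild type and 135, 122.9 and 136.1 in H4R45H, a rise of 3.93-fold. SIP18 rose 3.31-fold, from 22.5 ± 2.59 to 74.5 ± 9.71 (SD, n = 3), and STF2, which also protects dried cells, rose 2.82-fold from 224.8 ± 24.9 to 635 ± 96.4 (SD, n = 3). All H4R45H values lay above all wild-type values for each of these 5 genes, as they did for 39.8% of all genes.

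The 4 genes named for DNA damage, hyperosmotic shock or other stress ranged from no call to a 4.32-fold rise. DDR2 read 171.1, 211.8 and 209.1 in wild type and 780.1, 807.6 and 968.6 in H4R45H, a rise of 4.32-fold (log2 difference 2.11, SE 0.099, adjusted p = 7.2e-08). SPI1, a cell wall protein, rose 3.71-fold, from 87.0 ± 8.86 to 325.8 ± 63.9 (SD, n = 3). DDR48 rose 1.53-fold, from 603.3 ± 32.2 to 922.4 ± 47.8 (SD, n = 3). HOR7 did not differ beyond its spread. It read 1111.2, 1179.6 and 1164.3 in wild type and 1042.2, 1159.6 and 1277.1 in H4R45H, so the H4R45H values lay on both sides of the wild-type values. Its log2 difference was 0.01 (95% interval -0.14 to 0.16, adjusted p = 0.95). It was called higher after quantile normalization (0.16, adjusted p = 0.033) and after cyclic loess (0.17, adjusted p = 0.025), and had -0.10 after median centring (adjusted p = 0.27).

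All 6 enzymes of redox, aldehyde and NAD metabolism rose, between 1.67-fold and 4.27-fold, while 37.1% of all genes were called higher. ALD3, an aldehyde dehydrogenase of the cytosol, read 16.9, 16.5 and 19.8 in wild type and 77.9, 79.5 and 69.3 in H4R45H, the largest fold of the 6. GAD1, which makes 4-aminobutyrate from glutamate, read 132.9, 158 and 138.8 in wild type and 489.1, 550 and 613.1 in H4R45H, a rise of 3.84-fold. GPX1, a glutathione peroxidase, rose 3.26-fold from 27.7 ± 5.45 to 89.5 ± 6.86 (SD, n = 3). CTT1, the cytosolic catalase and a classical reporter of this response, rose 2.16-fold from 132.2 ± 26.4 to 283 ± 31.5 (SD, n = 3). PNC1, the nicotinamidase of NAD salvage, rose 1.92-fold from 397.4 ± 29.5 to 767 ± 123 (SD, n = 3). GRE3, an aldose reductase, rose 1.67-fold from 255.9 ± 16.9 to 429.6 ± 52.7 (SD, n = 3).

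The 6 genes for proteins found in mitochondria rose by similar amounts, 1.84-fold to 3.32-fold, with a median log2 difference of 1.61. FMP33 (3.32-fold), MSC1 (3.24-fold), FMP48 (3.23-fold), FMP16 (2.87-fold) and OM45 (2.78-fold), a protein of the outer membrane, lay close together, and SYM1, of the inner membrane, rose 1.84-fold. FMP48 was the dimmest of these, at 15.97 ± 1.99 in wild type and 51.4 ± 3.39 in H4R45H (SD, n = 3), and its fold was 1.99 after quantile normalization. RGI1 and RGI2 encode related proteins needed for energy supply during respiratory growth. RGI1 read 73.7, 82.5 and 100.3 in wild type and 335.8, 403 and 562 in H4R45H, a rise of 5.0-fold (log2 difference 2.32, SE 0.17, adjusted p = 1.1e-06). RGI2, whose per-array values were chosen after they were seen, was at the bottom of the scale, at 1.6, 4.1 and 4.4 in wild type and 4.8, 7.7 and 8 in H4R45H. The lowest H4R45H value lay just above the highest wild-type value. Its log2 difference of 1.12 passed the test (SE 0.40, adjusted p = 0.030), but not after quantile normalization (0.35, adjusted p = 0.41) or cyclic loess (0.17, adjusted p = 0.70). Leaving out wild type replicate 1 gave 0.65 (adjusted p = 0.069), H4R45H replicate 2 1.01 (adjusted p = 0.097) and H4R45H replicate 3 0.99 (adjusted p = 0.087).

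Genes that act on proteins in the vacuole and genes of regulators rose in 3 of 3 cases each, beside 37.1% of all genes. PRB1, the vacuolar proteinase B, rose 2.14-fold, from 308.5 ± 8.85 to 661.5 ± 68.2 (SD, n = 3). The inhibitors of its fellow proteases rose with it: TFS1, which inhibits carboxypeptidase Y, rose 3.13-fold from 184.1 ± 14.4 to 580.3 ± 89.4 (SD, n = 3), and PAI3, which inhibits proteinase A, rose 2.48-fold from 16.7 ± 2.11 to 41.3 ± 1.85 (SD, n = 3). PAI3 was 1.49-fold higher after quantile normalization and 1.62-fold after cyclic loess. XBP1, a repressor made under stress and in starving cells, read 25.2, 28.3 and 27.7 in wild type and 88.8, 97.2 and 120 in H4R45H, a rise of 3.74-fold. GAC1, which directs a protein phosphatase to glycogen synthase, read 6.8, 7.3 and 6.8 in wild type and 27.5, 25.6 and 31.4 in H4R45H. Its 4.03-fold rise (log2 difference 2.01, SE 0.14) started from a very dim signal and was 2.25-fold after quantile normalization and 1.37-fold with a pseudocount of 50. DCS2, a stress-made relative of the decapping enzyme Dcs1, rose 2.92-fold from 67.4 ± 2.16 to 198.8 ± 37.0 (SD, n = 3).

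Among enzymes and proteins of less known function, RTC3 read 79, 81 and 84.6 in wild type and 374.3, 496.4 and 651.7 in H4R45H, a rise of 6.07-fold (log2 difference 2.60, SE 0.16, adjusted p = 3.3e-07). MOH1 read 20.3, 24.9 and 22.1 in wild type and 133, 120.4 and 115.2 in H4R45H, a rise of 5.49-fold. RTC3 had an SD of 139 around its H4R45H mean of 507.5, and MOH1 one of 9.15 around 122.9. On the log2 scale their SDs were 0.40 and 0.11 in H4R45H, but 0.050 and 0.15 in wild type. Genes of like fold thus differed in how tightly their H4R45H arrays agreed, and the order was reversed in wild type. PHM8, a nucleotidase, rose 1.75-fold from 88.8 ± 6.13 to 155.5 ± 16.6 (SD, n = 3), and MRP8 rose 1.68-fold from 386.7 ± 17.8 to 650.7 ± 45.0 (SD, n = 3).

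Folds had a lower median in the class with the highest wild-type signal. The 15 genes with a wild-type signal under 50 rose by a median of 3.41-fold (1.49-fold to 6.90-fold), the 15 between 50 and 200 by 3.24-fold (1.75-fold to 6.07-fold), and the 9 above 200 by 1.69-fold (1.0-fold to 4.6-fold). The signal gained ran the other way, with a median gain of 59.9 units in the dim class, 233.8 in the middle class and 353 in the bright class. All genes showed a trend of the same direction, with median log2 differences of 0.68, 0.12 and -0.17 in these classes, and the stress genes lay above it in each (1.77, 1.70 and 0.76). Over the 39 genes the rank correlation of wild-type signal and log2 difference was -0.40, a description only, since the wild-type signal enters both. With the mean log2 signal over all 6 arrays in place of the wild-type signal it was -0.27. In the 4 classes of equal size by that mean, from dim to bright, the median log2 differences of the stress genes were 1.73, 1.86, 1.89 and 0.94, lowest in the brightest class. In the dimmest 25% of genes, up to a signal of 79.7, 59.3% of all genes and 13 of 13 stress genes were called higher. In the brightest 25%, from 313.9 upwards, 18.7% of all genes and 10 of 11 stress genes were called higher, with median log2 differences of -0.16 and 0.94. The highest signals of the H4R45H arrays were 1918.9 to 2156.1, and HSP12 and HOR7 had H4R45H means of 1602 and 1160. Whether signals this bright are compressed on the arrays was not tested. Scaling moved 5 of the 39 folds by more than 1.5 times (YNL194C, FMP48, RGI2, PAI3 and GAC1), and 26 genes were at least 2-fold higher under the deposited, quantile, median-centred and cyclic loess scales alike. With a pseudocount of 50, 16 genes moved by more than 1.5 times, and RTN2 was 3.68-fold higher.

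**Figure D2:**
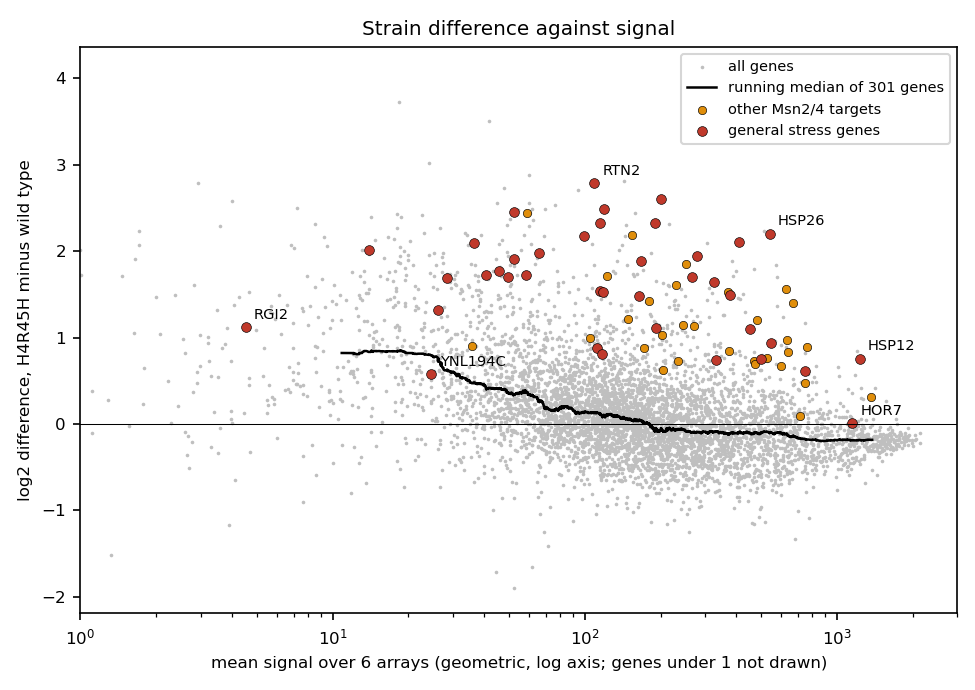
Log2 difference between strains (H4R45H minus wild type) against the mean signal over the 6 arrays (geometric mean, log axis); grey points are all genes, the line their running median, red points the 39 general stress genes and orange points 30 other Msn2/4 targets. Nearly all red points lie above the line at every level of signal, and HOR7, RGI2 and YNL194C lie closest to it.

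The stress genes also moved together between arrays of the same strain. On H4R45H replicate 1 the signal was the lowest of the 3 H4R45H arrays for 30 of the 39 genes, and on H4R45H replicate 3 it was the highest for 33 of 39. For all genes these shares were 35.5% and 36.8%. Against the wild-type mean the median rise of the 39 genes was 2.79-fold on H4R45H replicate 1, 3.11-fold on replicate 2 and 3.56-fold on replicate 3. The rise was thus present on each H4R45H array but differed in size between them. Among the 9 genes that were not lowest on H4R45H replicate 1, SIP18, PAI3 and MOH1 were highest there. In wild type, replicate 1 was the lowest for 30 of 39 genes, against 39.6% of all genes. The stress genes had a median SD of log2 signal of 0.14 over the wild-type arrays and 0.17 over the H4R45H arrays, against 0.076 and 0.084 for all genes. These spreads were not matched for signal. The median signal of the stress genes was 81.5 in wild type and 274.4 in H4R45H, against 151.7 and 161.3 for all genes. The median log2 difference of the stress genes was 1.73 without H4R45H replicate 1, 1.59 without H4R45H replicate 3 and 1.59 without wild type replicate 1. Because the arrays deviate together, the 39 results are not independent of each other.

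**Figure D3:**
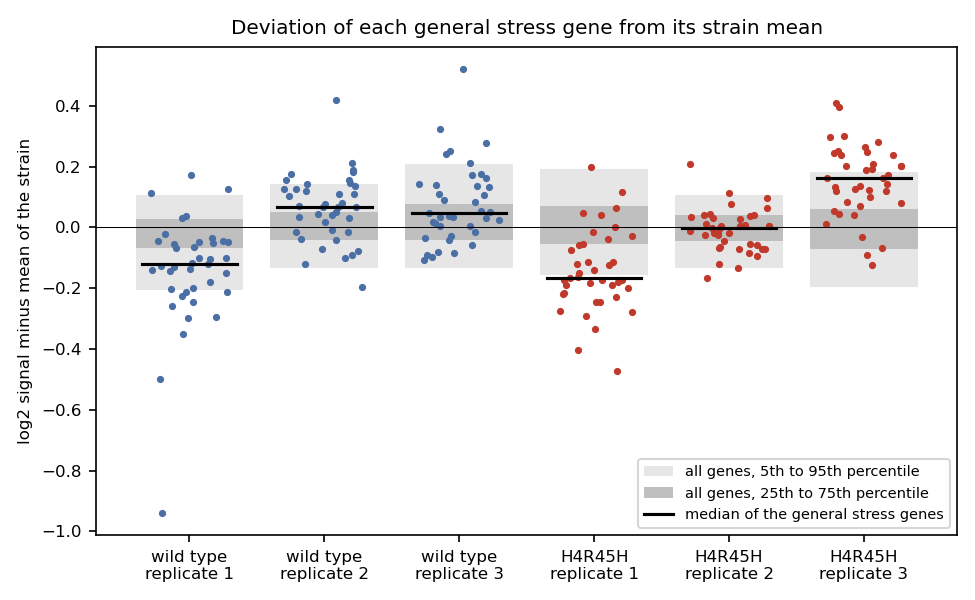
Log2 signal of each of the 39 general stress genes on each array, minus the mean of its strain; points are genes, black bars their medians, and grey bands the spread of all genes. Most points lie below 0 on wild type replicate 1 and H4R45H replicate 1 and above 0 on H4R45H replicate 3, where the medians were -0.12, -0.17 and 0.16.

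Many of the stress genes have a close relative in the genome. Of 18 such pairs, 14 had a partner outside the list, and of these 14 partners 9 rose, 1 fell and 4 did not pass the test, beside 37.1% higher and 29.1% lower of all genes. RTN1, the main reticulon, fell from 993.4 ± 44.4 to 794.7 ± 32.7 (SD, n = 3; log2 difference -0.32, adjusted p = 3.3e-04) while RTN2 rose. SED1, an abundant cell wall protein related to SPI1, had a log2 difference of -0.10 (adjusted p = 0.16), GPX2 one of -0.15 (adjusted p = 0.19), SDT1, the relative of PHM8, one of -0.16 (adjusted p = 0.080), and YLR179C, the relative of TFS1, one of -0.13 (adjusted p = 0.060). The 4 were called lower after median centring, as was SDT1 after quantile normalization and cyclic loess, and SED1 had 0.06 and 0.10 and YLR179C -0.01 and 0.01 on those 2 scales. Smaller rises than in the stress gene were seen for EGO2 (0.36), DCS1 (0.68), ALD2 (0.88), YSP3, the relative of PRB1 (0.90), PIG1, the relative of GAC1 (0.96), and the small heat shock gene HSP42 (1.15). TMA10, the relative of STF2, rose more than its partner, 5.81-fold, from 32.0 ± 4.66 to 187.2 ± 40.9 (SD, n = 3).

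The difference within each pair was tested on the log2 ratio of both genes on each array with an exact permutation test, two-sided, for which 3 arrays against 3 cannot give a p below 0.1. Of the 14 pairs with an outside partner, the stress gene rose more with no overlap between strains in 11 (exact p = 0.1 each), and TMA10 rose more than STF2 in the same sense (exact p = 0.1). For CTT1 and the peroxisomal catalase CTA1 (1.11 and 1.25, exact p = 0.3) and for SYM1 and YOR292C (0.88 and 1.02, exact p = 0.4) the ratios overlapped between strains. Of the 4 pairs with both genes in the list, 3 were apart: FMP45 rose more than YNL194C by 1.60 on the log2 scale, DDR2 more than HOR7 by 2.11, and RGI1 more than RGI2 by 1.2 (exact p = 0.1 each). GRE1 and SIP18 were not (1.97 and 1.73, exact p = 0.2). Adjusted over the 18 pairs, no such p can reach 0.05. The pairs were not matched for signal. RTN1, SED1 and YLR179C had wild-type means of 993.4, 1843 and 860.2, against 41.8, 87.0 and 184.1 for their stress genes. TMA10 was dimmer than STF2 (32.0 and 224.8), while YSP3 and HSP42 were dimmer than PRB1 and HSP26 and rose less. Among all genes the dimmer classes had larger differences, and how far signal enters these gaps was not tested.

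**Figure D4:**
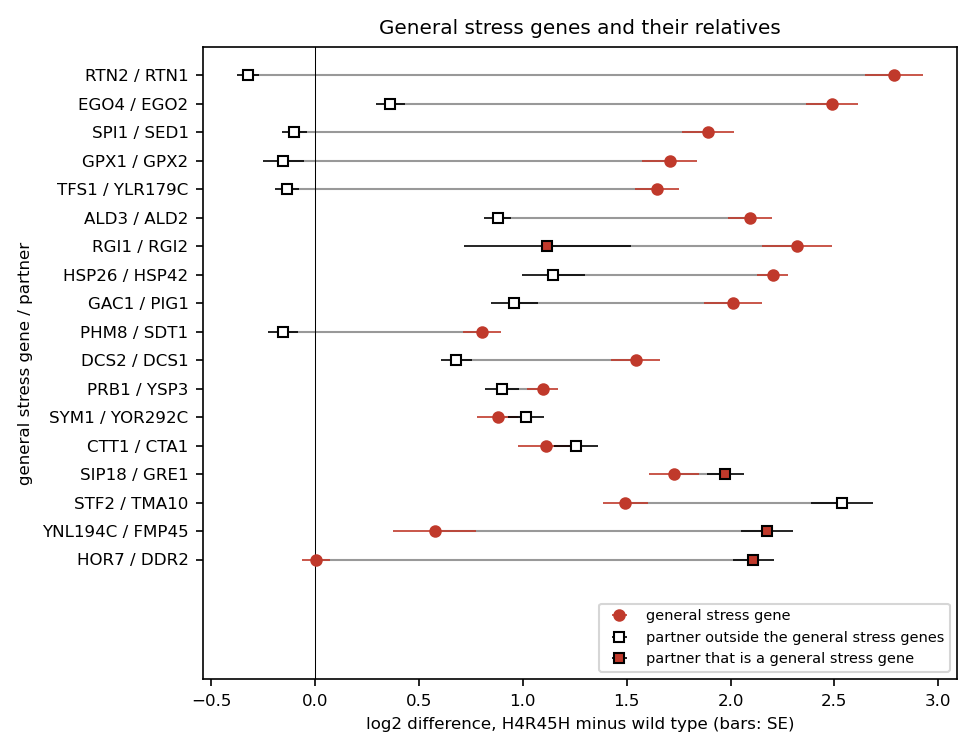
Log2 difference between strains (H4R45H minus wild type, bars SE) of each general stress gene (circle) and its relative (square, white for partners outside the list, red for partners inside it), ordered by the gap between them. RTN2 and RTN1 are farthest apart (2.79 and -0.32), and TMA10 lies to the right of STF2 (2.54 and 1.49).

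Of 30 other genes known as Msn2/4 targets, 29 rose and 1 did not pass, against the 37.1% called higher among all genes. Their median log2 difference was 0.98, with 14 of 30 at least 2-fold higher. All 3 genes of the pentose phosphate pathway rose, TKL2 by 2.44, GND2 by 2.19 and SOL4 by 1.71 on the log2 scale. Trehalose and glycogen genes rose in 9 of 10 cases (median 0.83), led by the glycogen debranching enzyme GDB1 (1.85). UGP1, which makes UDP-glucose, had 0.09 (adjusted p = 0.31) and was called higher after quantile normalization (0.19, adjusted p = 0.045) and cyclic loess (0.23, adjusted p = 0.020). Chaperone and ubiquitin genes rose in 6 of 6 cases, with a median of 1.01. The arrays showed the pattern of the 39 genes, with H4R45H replicate 1 the lowest for 27 of 30 and H4R45H replicate 3 the highest for 28 of 30. The median was 0.86 without H4R45H replicate 3 and 1.13 without H4R45H replicate 1. HSP42 and ALD2 stand both here and among the partners.

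Regulators of the stress response went in both directions. The list holds the activators MSN2, MSN4, HSF1, GIS1 and USV1 themselves. Its other genes are kinases, localisation and phosphatase factors, and genes of the Ras and protein kinase A pathway. Of 24 measured, 11 rose and 5 fell, beside 37.1% and 29.1% of all genes, and 8 did not pass. Their median log2 difference was 0.15. MSN2 read 151.9, 161.9 and 147.9 in wild type and 139.2, 161.4 and 152.6 in H4R45H, with overlapping values and a log2 difference of -0.03 (95% interval -0.21 to 0.16, adjusted p = 0.75). MSN4 read 84.5, 99.4 and 112 in wild type and 98.5, 105.8 and 134.8 in H4R45H, which also overlapped (0.19, 95% interval -0.09 to 0.47, adjusted p = 0.21). The data hold no measure of where the proteins lie in the cell. USV1, a stress-made transcription factor, rose 3.07-fold from 17.7 ± 3.70 to 54.3 ± 10.8 (SD, n = 3), and was 1.90-fold higher after quantile normalization. RIM15, a kinase that acts in nutrient shortage and is itself held back by protein kinase A, read 45.5, 47.3 and 46.2 in wild type and 129.3, 132.4 and 139 in H4R45H, a rise of 2.88-fold (adjusted p = 6.9e-08). Genes of the Ras and protein kinase A pathway moved both ways. The phosphodiesterase PDE1 rose by 0.83 and PDE2 fell by 0.37 on the log2 scale, and RAS1 fell by 0.58, while the adenylate cyclase CYR1 (0.62), the kinase's regulatory subunit BCY1 (0.54) and its catalytic subunit TPK2 (0.49) rose. The activator GIS1 rose by 0.69. WHI2, which acts with the phosphatase Psr1 on Msn2, fell by 0.32 and the kinase SCH9 by 0.30. These named calls held under quantile normalization, median centring and cyclic loess, while the calls of 5 other regulators (HSF1, BMH1, PSR1, TPK3 and RAS2), all with log2 differences under 0.25 in size as deposited, changed with the scale.

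**Figure D5:**
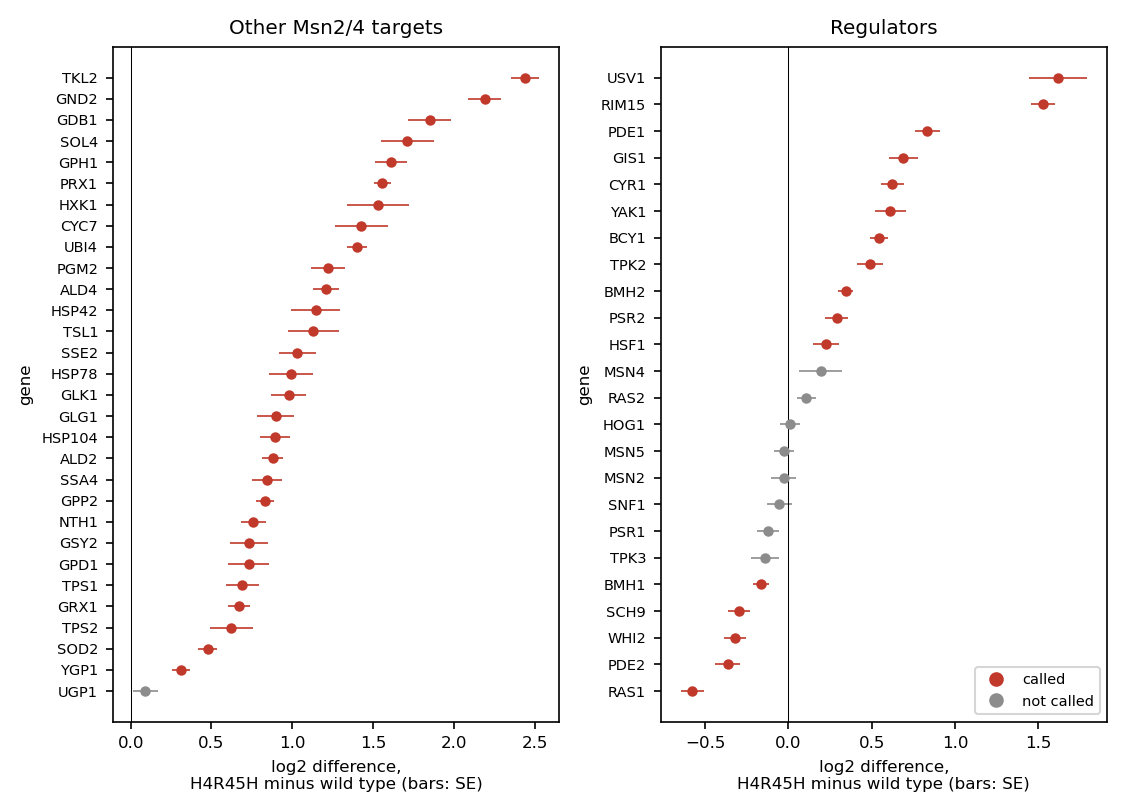
Log2 difference between strains (H4R45H minus wild type, bars SE) of 30 other Msn2/4 targets (left) and 24 regulators (right); red points passed the test and grey points did not. Of the targets 29 lie above 0 and were called, and the regulators spread from -0.58 for RAS1 to 1.62 for USV1 with MSN2 and MSN4 near 0.

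Genes next to the stress genes on the chromosome were close to the background. By gene order in the RefSeq table (assembly R64), 62 measured genes lay next to a stress gene without being in the list, and 25 of them (40.3%) rose and 13 fell, beside 37.1% and 29.1% of all genes. Their median log2 difference was 0.15, and -0.11 after quantile normalization. At a distance of 2 genes 44.8% were higher, and at 3, 4 and 5 genes 28.4%, 32.4% and 25.8%. The largest rises were those of SGA1, a glucoamylase of sporulating cells next to XBP1 (4.04-fold), YBR071W next to HSP26 (3.04-fold), YNL195C next to YNL194C (2.89-fold) and ATG34, an autophagy receptor next to PHM7 (2.48-fold). SSP120, next to SYM1, fell by 1.16 on the log2 scale. Stress genes adjacent to each other were HBT1 with FMP45 (2.33 and 2.18 on the log2 scale), and DDR48, PAI3 and SIP18 in a row (0.61, 1.31 and 1.73). TFS1 lies next to its relative YLR179C and ALD3 next to ALD2. Only MSC1 lay among the 10 outermost genes of a chromosome arm, at place 6.

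Array means were 276.8 to 287.4 units and array medians 148.5 to 163.3. Cell-type markers were read for mating type, which the labels do not give. The 5 genes of a cells (MFA1, MFA2, STE2, STE6 and BAR1) had mean signals of 277.4 to 913.4 in wild type and 245.4 to 697.6 in H4R45H, and 2 rose, 2 fell and 1 did not pass. STE3, of alpha cells, was at 18.9 ± 2.46 in wild type and 55.5 ± 0.603 in H4R45H (SD, n = 3; log2 difference 1.56), and its part in the results was not tested. MFALPHA1 and MFALPHA2 were planned as markers too, but no measured gene was matched to them by symbol or synonym. STE3 was thus the only alpha-cell marker read.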

How the data were processed

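Biotin-labelled target from about 20 µg of total RNA per sample was hybridised to one-colour arrays, per the labels. The deposited values are linear intensities, 1 per probe set. The authors made them with MAS5, per the submitters' processing notes; its version, scaling target and detection calls are not given in the sources used here. Of 5716 probe sets 5498 had 1 gene in the platform annotation, 0 several and 218 none, and symbols were updated through RefSeq by Entrez identifier. Sequences were not used here, so the planned count of promoter elements was not made.

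The log2 signal was used as deposited. A floor of 0.1 replaced 7 zeros (3 probe sets). The strains were compared per probe set with limma 3.58.1 (lmFit, eBayes with trend; R 4.3.3), two-sided, and p-values were adjusted by Benjamini-Hochberg over 5716 probe sets. The fit was tested on simulated data with independent noise for each probe set. That test does not cover deviations that the stress genes share between arrays. Rose and fell mean an adjusted p under 0.05. Errors are SD; SE and folds come from the fitted log2 difference; the number of arrays limits the precision.

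The genes and lists were chosen with earlier results of these data known. By rule, values per array are given for the 14 largest differences and for stress genes not called, and up to 4 called genes of other lists are named, beside MSN2 and MSN4. Regulators beyond these, and the classes of wild-type signal, were chosen after values were seen. Over all probe sets the deviations of same-numbered arrays from their strain means had correlations of 0.03, -0.02 and -0.03, so numbers were not taken as pairs, although replicate 1 was lowest for most stress genes in both strains.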

Additional observations from a re-analysis of the deposited data

How the results depend on the processing

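The count of 38 stress genes called higher was 36 to 38 when any array was left out, 37 after quantile normalization, median centring or cyclic loess, 38 with a pseudocount of 50, without the variance trend or with the replicate block, 30 with a minimum of 2-fold, and 25 of the 26 genes left without the dimmest 25% of probe sets. With the minimum of 2-fold it was 28 after quantile normalization and 29 after cyclic loess, settings added after seeing the data. Of all genes 26.9% were called higher after quantile normalization, 30.3% after median centring and 30.7% after cyclic loess, against 37.1% as deposited. The 37 stress genes were not the same on each scale. YNL194C was lost on all of them, and after quantile normalization and cyclic loess RGI2 was lost too and HOR7 gained. The median log2 difference of 1.70 was 1.34 after quantile normalization, 1.42 after cyclic loess, 0.97 with a pseudocount of 50, 1.53 without the dimmest 25% and 1.59 to 1.73 when an array was left out. Of 572 recomputed values of single stress genes, 556 kept their direction and side of the threshold. The others were of HOR7, YNL194C and RGI2; HOR7 turned to -0.10 after median centring and ranged from -0.067 to 0.080 without an array, and YNL194C turned to -0.22 after quantile normalization and -0.056 after cyclic loess. MSN2 ranged from -0.077 to 0.029 without an array, and MSN4 turned to -0.011 after quantile normalization.

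With a minimum of 2-fold 14 of 30 other targets, 2 of 24 regulators, 4 of 14 partners and 6 of 62 adjacent genes were higher. Of all genes 8.88% were, and the regulators and adjacent genes lay near that share. With the same minimum 0 regulators, 0 partners and 1 adjacent gene were lower. Partners called lower numbered 1 as deposited, 2 after quantile normalization, 5 after median centring, 2 after cyclic loess and 1 to 2 without an array. Adjacent genes called higher numbered 14 of 62 after quantile normalization and 13 of 41 without the dimmest 25%, against 25 of 62 as deposited. Of all genes 26.9% and 29.9% were called higher in these settings, against 37.1% as deposited. The median of the adjacent genes was -0.11 after quantile normalization and -0.064 after cyclic loess, beside -0.066 and -0.0091 for all genes. The cause of these shifts was not tested, other than that fewer genes remain without the dimmest 25%. The replicate block changed no call of a stress gene. The counts with quantile normalization rest on the assumption that all arrays share 1 distribution of signal, which was not tested. The alternatives for promoter windows were not run. No detection calls were used, so how far the dimmest genes lie above background is not known.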
